A study of Mus musculus with 12 samples.

Results

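The genes of glycolysis, of the pentose phosphate pathway and of the response to low oxygen were followed in mouse epiblast-like cells (EpiLCs) with and without a functional *Kdm5c*. A list of 37 genes, chosen with earlier results of these data known, was taken. All 37 were found among the 22911 genes of both deposited tables. The list holds 3 genes of the first steps of glycolysis (hexokinases and glucose-6-phosphate isomerase), 5 of the phosphofructokinase step, 8 of lower glycolysis, 4 of lactate production and export, 2 glucose transporters, 5 of the pyruvate dehydrogenase complex and its kinase, 4 of the pentose phosphate pathway and 6 of the hypoxia response. EpiLCs were made from embryonic stem cells (ESCs) in serum-free medium with FGF2 and Activin A over 48 h, after culture with LIF and inhibitors of GSK3 and MEK. RNA was sequenced in 3 libraries for each of 4 genotypes. The female controls were *Kdm5c* fl/fl (floxed, not recombined) and the female mutants *Kdm5c* Δ/Δ. The male controls were *Kdm5c* fl Y and the male mutants *Kdm5c* Δ Y, since *Kdm5c*, also called *Smcx*, is on the X chromosome. The Δ allele lacks the exons that encode the demethylase domain, and it was present before the ESC lines existed rather than induced in culture. The strain label of all samples is C57BL/6J, whereas the study's methods give a mixed background for the floxed strain. Per the labels the 3 libraries of a genotype come from separate ESC lines, and whatever else the lines of 2 genotypes differ in cannot be told apart from the mutation.

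Glycolysis splits glucose into pyruvate, which is either reduced to lactate and exported or passed to mitochondria through the pyruvate dehydrogenase complex. The pentose phosphate pathway branches off at glucose-6-phosphate and yields NADPH and ribose. Under low oxygen, the prolyl hydroxylases EGLN1 and EGLN3 act less on the alpha subunits HIF1A and EPAS1, which then accumulate and induce many glycolytic genes together with *Vegfa* and *Bnip3*. Naive ESCs use both glycolysis and respiration, and cells of the primed state rely more on glycolysis. EpiLCs stand between the naive and the primed state.

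The tables list means per genotype of normalized counts, that is, of the reads of a gene after scaling by the depth (size factor) of the library. Reads of single libraries were worked out from these means. All 37 members were resolved in all 12 libraries, which held 6251464 to 12583027 recovered reads each. Within a genotype, libraries are named A, B and C from the largest to the smallest size factor. None of them could be tied to a single line. Male control library B and male mutant library A stood apart from the other libraries of their genotypes. Over 9794 genes with a mean of at least 100, the median absolute log2 difference was 0.220 and 0.235 in pairs with male control B and 0.262 and 0.248 in pairs with male mutant A, against 0.085 to 0.099 in all other pairs within a genotype. Over the members the same pairs differed by 0.253 and 0.30 and by 0.432 and 0.333. Male results are therefore also given without these libraries. *Kdm5c* itself fell in females (2359.7 ± 60.7 in controls and 1453 ± 49.7 in mutants, SD, n = 3), whereas in males it was 2226 ± 133 and 1938 ± 39.7 with an adjusted p of 0.264 from limma. The male libraries of the genotypes lay apart for *Kdm5c*, and without male control B and male mutant A it was called lower (−0.22, adjusted p = 0.0220 from limma). Counts over the whole gene say little about an allele that lacks only a few exons.

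Markers of cell states that the cultures could hold differed between the genotypes. Genes of formative epiblast (*Pou5f1*, *Sox2*, *Fgf5*, *Otx2*, *Dnmt3b*, *Pou3f1*, *Lin28b*) were present in every group, with summed levels of 10022 to 10271 in female controls, 13393 to 13873 in female mutants, 10760 to 18057 in male controls and 7779 to 12075 in male mutants. These genes did not move together in females, where *Sox2*, *Otx2* and *Dnmt3b* rose and *Pou5f1*, *Pou3f1* and *Lin28b* fell (median log2 fold change −0.079), and in males 3 of 7 fell (median −0.95). The summed level of 8 naive pluripotency genes was 965 to 998 in female controls and 3033 to 3193 in female mutants, and 1446 to 2588 and 4120 to 7365 in males. Of these 8 genes, 7 rose in females and 5 in males. The sum of 6 endoderm genes was 143 to 195 in female controls and 2067 to 2169 in female mutants, where all 6 rose. It was 1018 to 1201 in male controls and 179 to 889.9 in male mutants, where 1 of the 6 genes (*Sox17*) fell. Genes of fibroblasts, on which the ESC lines were derived, summed to 2244 to 2297 and 745 to 806 in females and to 553 to 820 and 4163 to 4663 in males (3 of 6 fell in females and 4 of 6 rose in males). No marker was at 0 in all libraries of a group. These differences moved with the genotypes compared here, and their part in the results on the members was not tested. In a bulk sample, fewer cells of a type and less RNA per cell cannot be told apart.

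The 37 members together took up 2.11 to 2.22% of the normalized reads in female controls and 1.25 to 1.32% in female mutants. The summed normalized count was 205697 ± 7172 (SD, n = 3) in female controls, 128630.0 ± 2982 in female mutants, 181763 ± 18247 in male controls and 180389 ± 22198 in male mutants. Female libraries of the genotypes did not overlap in this sum, with 201078 to 213958 in controls and 125190.0 to 130500.0 in mutants. Male libraries overlapped, and the lowest sums of their genotypes were those of control B (160746) and mutant A (155131). Per kilobase of exon, the most abundant members in female controls were *Pkm* (13952 normalized counts per kb), *Pgk1* (9198), *Aldoa* (8884), *Pgam1* (6729), *Ldha* (5095) and *Tpi1* (4416), all of them enzymes of lower glycolysis and lactate production. The least abundant was *Pfkfb4* (6.26), with 18 to 47 reads in the libraries as a whole. Several of these genes have processed copies elsewhere in the genome. The share of exonic positions with a unique 50-base read was 8.81% in *Pgam1*, 31.4% in *Pgk1*, 55.3% in *Bnip3* and 60.5% in *Pkm*, so their levels per kb are lower bounds in reads that map once. The share was 79.2% in *Eno1*. Its copy *Eno1b* has a row of its own and took 1.96 to 4.86 times as many normalized reads as *Eno1* in each library. How much sequence *Eno1* and *Eno1b* share was not measured, so the value of *Eno1* alone is uncertain.

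RefSeq promoters (GRCm38.p6) were found for 35 of the 37 members, and none for *Slc2a3* and *Epas1*. The core of the hypoxia response element, to which HIF1A and EPAS1 bind together with ARNT, is ACGTG or GCGTG. At least 1 of these motifs, on either strand, was in the 250 bases before the start in 39 of 50 promoters of the members (78%), against 38.6% of 32851 RefSeq promoters and 58.6% of 9476 promoters of genes whose mean reached 100. For the members lower in female mutants it was 27 of 35 promoters (77.1%), so the motif did not set them apart from the members as a whole. The motifs hold a CG, and overlapping matches on both strands were counted as 2. The 5 members shown are those that fell most in female mutants among members with a single listed promoter. They were chosen with the values known, and capitals mark the motifs.
Eno2, chr6:124769674-124769923, − strand: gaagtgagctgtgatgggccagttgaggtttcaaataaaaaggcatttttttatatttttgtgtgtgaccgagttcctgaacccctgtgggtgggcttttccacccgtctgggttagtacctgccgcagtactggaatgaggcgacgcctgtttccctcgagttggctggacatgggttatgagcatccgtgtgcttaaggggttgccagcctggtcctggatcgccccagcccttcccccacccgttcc
Egln3, chr12:54203875-54204124, − strand: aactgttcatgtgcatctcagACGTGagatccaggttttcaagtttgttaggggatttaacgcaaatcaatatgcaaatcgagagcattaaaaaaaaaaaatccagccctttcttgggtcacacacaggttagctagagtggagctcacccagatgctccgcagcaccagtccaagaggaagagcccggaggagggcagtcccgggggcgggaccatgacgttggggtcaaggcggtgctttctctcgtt
Egln1, chr8:124949255-124949504, − strand: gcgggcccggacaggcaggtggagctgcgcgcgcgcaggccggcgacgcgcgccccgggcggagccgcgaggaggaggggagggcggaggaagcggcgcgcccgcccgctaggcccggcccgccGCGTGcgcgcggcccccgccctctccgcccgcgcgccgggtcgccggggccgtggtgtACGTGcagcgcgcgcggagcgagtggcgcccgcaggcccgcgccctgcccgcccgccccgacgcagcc
Slc16a3, chr11:120948817-120949066, + strand: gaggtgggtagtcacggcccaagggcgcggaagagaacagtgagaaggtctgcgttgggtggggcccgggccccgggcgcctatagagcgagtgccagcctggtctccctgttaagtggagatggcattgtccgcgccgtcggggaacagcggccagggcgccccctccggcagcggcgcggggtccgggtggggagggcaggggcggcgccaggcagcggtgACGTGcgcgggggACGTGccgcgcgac
Pgk1, chrX:106186850-106187099, + strand: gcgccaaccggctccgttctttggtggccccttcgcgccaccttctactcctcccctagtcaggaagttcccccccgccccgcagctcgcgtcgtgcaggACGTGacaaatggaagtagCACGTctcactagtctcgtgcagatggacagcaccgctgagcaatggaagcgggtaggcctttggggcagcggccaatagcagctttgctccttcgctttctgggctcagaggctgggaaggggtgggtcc
*Pgk1* held 2 matches, 150 and 131 bases before its start, and *Slc16a3* held 2, of which the nearer began 14 bases before the start. *Egln1* held 2 matches and *Egln3* 1, and the window of *Eno2* held 0. A match is a description of the letters, and binding was not measured here.

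**Figure D1:**
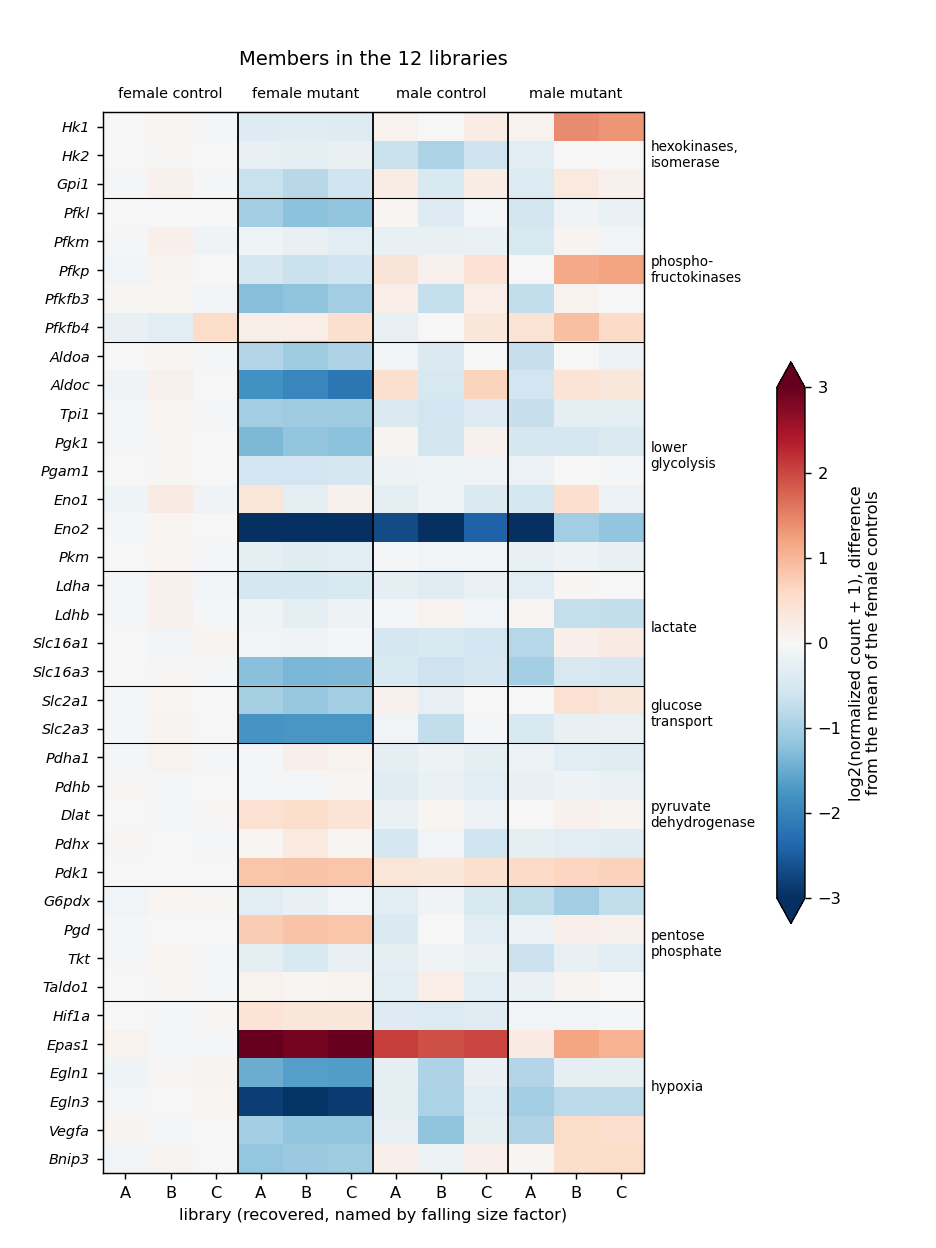
Each row is a member and each column a library. Colour gives log2(normalized count + 1) minus the mean of the female controls, cut at −3 and 3, with members grouped by role. Blue rows fill the female mutant columns in glycolysis, with *Eno2* and *Egln3* the deepest, whereas *Epas1* is red in female mutants and in male controls, and male mutant A differs from male mutants B and C.

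Female mutants had lower levels of most of the glycolytic and hypoxia genes. Among the 37 members, 25 fell and 5 rose, and 7 did not pass the test (limma, adjusted p under 0.05 over 19665 genes). Among all genes tested, 24.7% were lower and 25.5% higher, so lower calls were more frequent among the members than among all genes and higher calls less frequent. Genes with few reads are rarely called. In the fit of genes with a mean of at least 10, 65.9% were called, 50.7% of these higher. Among the members, 25 were lower and 5 higher in that fit as well, so the excess of lower calls is smaller against this background. The median log2 fold change of the members was −0.38, against 0.0040 over all genes tested. In 31 of 37 members control and mutant libraries had separate ranges, which held for 54.9% of all genes. The fall reached genes of glucose uptake, of early and late glycolysis and of lactate export, whereas the genes that rose were *Pdk1*, *Dlat*, *Pgd*, *Hif1a* and *Epas1*. A scaling by total reads moved the median of all genes by −0.0526 on the log2 scale and called 26 members lower.

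Both glucose transporters fell. *Slc2a3* (GLUT3), the high-affinity transporter, lies on chromosome 6 from 122677827 to 122751658 on the − strand of mm9. It had 20306, 22314 and 21049 normalized counts in female control libraries A, B and C and 6222, 6272 and 6326 in the mutants. The mutant libraries were close to each other and far below every control, by 3.38-fold (log2 fold change −1.76, SE 0.056, adjusted p = 4.57e-14, limma). *Slc2a1* (GLUT1), the basal transporter, went from 7062, 7667 and 7297 to 3681, 3311 and 3570.3, which is 2.09-fold lower and again without overlap (log2 fold change −1.06, SE 0.057, adjusted p = 4.58e-11, limma).

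Hexokinases trap glucose as glucose-6-phosphate, and their change was small. *Hk2*, the inducible form, fell from 5223, 5370.1 and 5243 to 4423, 4399 and 4524, a log2 fold change of −0.25 (SE 0.050, adjusted p = 0.000482) in limma. *Hk1* fell from 537, 565 and 523 to 415, 418 and 413 (−0.38, adjusted p = 7.55e-05 from limma). In both genes every mutant library lay below every control library. *Gpi1*, the isomerase of the next step, fell by more, from a mean of 7633 ± 576 to 4676 ± 378 (SD, n = 3), a log2 fold change of −0.71 (SE 0.067, adjusted p = 8.46e-08) in limma.

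Phosphofructokinase commits sugar to glycolysis. Its liver-type gene *Pfkl* had 8339, 8355 and 8226 normalized counts in controls and 4089.9, 3558 and 3683 in mutants, 2.20-fold lower (log2 fold change −1.14, SE 0.058, adjusted p = 2.31e-11, limma). The platelet type, *Pfkp*, fell from 987, 1098 and 1037 to 734, 652 and 687, and the muscle type, *Pfkm*, from a mean of 682 to 583. *Pfkm* passed the test (limma, adjusted p = 0.0172), but its adjusted p was 0.121 without control library B and 0.107 without mutant library C. *Pfkfb3*, whose enzyme makes the allosteric activator fructose-2,6-bisphosphate, fell 2.25-fold from 919, 939.9 and 854 to 373, 392 and 439.6. The log2 fold changes of *Pfkp* and *Pfkfb3* were −0.59 (SE 0.063, adjusted p = 4.01e-07) and −1.17 (SE 0.071, adjusted p = 2.23e-10) in limma. For *Pfkfb4*, a relative of *Pfkfb3*, the means were 25.9 and 30.7 and the libraries overlapped, with a 95% interval of the log2 fold change from −0.28 to 0.85.

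Lower glycolysis held the largest change among the members. *Eno2*, the enolase best known from neurons, lies on chromosome 6 from 124710071 to 124719691 on the − strand of mm9. It had 728, 769.7 and 732 normalized counts in female controls and 18.0, 18.5 and 19.2 in mutants. That is 40-fold lower (log2 fold change −5.25, SE 0.11, adjusted p = 2.66e-16, limma), and the mutant value rested on 19 to 23 reads per library. *Aldoc* (aldolase C) fell 3.97-fold from 309.8, 367 and 331 to 94.0, 85.9 and 73.8 (log2 fold change −1.98, SE 0.11, adjusted p = 7.16e-11, limma). The more abundant *Aldoa* fell from 24455, 25298 and 23645 to 13276, 11613 and 12842, a log2 fold change of −0.96 (SE 0.063, adjusted p = 7.48e-10) in limma.

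*Tpi1*, which interconverts the triose phosphates, was at 9486, 10207 and 9572 in controls and 4704, 4693 and 4656 in mutants. *Pgk1*, which makes the first ATP of the pathway, lies on chromosome X from 103382439 to 103399038 on the + strand of mm9 and is X-linked. It fell 2.38-fold, from 19923, 21269.7 and 20728 to 8076, 9143 and 8829 (log2 fold change −1.25, SE 0.061, adjusted p = 1.35e-11, limma). Both genes had mutant libraries at less than 0.5 times the lowest control library. *Pgam1* fell by less, from 12123, 12613 and 12226 to 8238, 8270.1 and 8718, and *Pkm*, the pyruvate kinase gene, from a mean of 33359.7 ± 1104 to 26730.4 ± 735 (SD, n = 3). The log2 fold changes were −1.06 (SE 0.053, adjusted p = 2.00e-11) for *Tpi1*, −0.55 (SE 0.054, adjusted p = 1.42e-07) for *Pgam1* and −0.32 (SE 0.061, adjusted p = 0.000268) for *Pkm* in limma. *Eno1* did not pass the test, with 1952, 2541 and 1993 in controls and 2776, 1793 and 2328 in mutants (95% interval of the log2 fold change −0.17 to 0.32, limma). Its copy *Eno1b* had 9264, 10055 and 9683 in controls and 6981, 6583 and 6477 in mutants, a log2 fold change of −0.53 (SE 0.056, adjusted p = 3.11e-07 from limma). Reads of *Eno1* and *Eno1b* cannot be told apart where their sequences match, so the gene that changed cannot be named from them. *Eno1b* was looked up after the values of *Eno1* were seen.

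In lactate metabolism, *Slc16a3* (MCT4), the transporter known for lactate export, fell 2.5-fold, from 5201, 5446 and 5184 to 2206, 2043 and 2076 (log2 fold change −1.32, SE 0.053, adjusted p = 9.80e-13, limma). *Slc16a1* (MCT1) had means of 4196 and 3967 and did not pass the test, with an interval from −0.19 to 0.034. *Ldha*, which makes lactate from pyruvate, fell from 14589.5, 16646 and 14346 to 10713, 10446 and 10968, a log2 fold change of −0.50 (SE 0.063, adjusted p = 2.85e-06) in limma. The means of *Ldhb* were 1377 and 1216. Its change, −0.18 on the log2 scale, was called with all libraries (limma, adjusted p = 0.0286) and was not called without control B (0.18), mutant B (0.136) or mutant C (0.0550).

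The pyruvate dehydrogenase complex did not follow the glycolytic genes. *Pdha1*, the X-linked gene of its alpha subunit, was at 1885, 2086 and 1853 in female controls and 1873, 2159.9 and 2073 in mutants, and the libraries overlapped (95% interval of the log2 fold change −0.066 to 0.20, limma). For *Pdhb*, the beta subunit, the means were 1891 and 1863 and the interval −0.13 to 0.091, and for *Pdhx* they were 291 and 320.1 with an interval of −0.037 to 0.31. *Dlat*, the acetyltransferase of the complex, rose from a mean of 1010.2 ± 27.8 to 1397 ± 61.5 (SD, n = 3), a log2 fold change of 0.47 (SE 0.056, adjusted p = 1.60e-06) in limma. *Pdk1*, the kinase that inactivates the complex and a textbook target of HIF1A, rose 1.79-fold from 1510.0, 1554 and 1539 to 2722, 2798 and 2715 (log2 fold change 0.84, SE 0.051, adjusted p = 2.17e-10, limma). Its direction was opposite to that of *Slc2a1*, *Egln3*, *Vegfa* and *Bnip3*, which are also known HIF targets.

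Of the 4 pentose phosphate genes, *Pgd*, the second dehydrogenase of the oxidative arm, rose 1.76-fold from 1302, 1356 and 1357 to 2261, 2414 and 2379.8 (log2 fold change 0.81, SE 0.053, adjusted p = 6.37e-10, limma). The first dehydrogenase gene, the X-linked *G6pdx*, had 556, 609 and 601 in controls and 471, 505 and 559.8 in mutants, which overlapped. Its log2 fold change of −0.20 had an adjusted p of 0.0252 from limma, which rose to 0.129 without mutant A, 0.0689 without mutant B, 0.0904 without control B and 0.0826 without control C. In the non-oxidative arm, *Tkt* (transketolase) fell from a mean of 4589.6 ± 191 to 3672 ± 278 (SD, n = 3; limma, adjusted p = 0.000212), and *Taldo1* (transaldolase), with means of 1284 and 1365, did not pass the test (interval −0.025 to 0.20).

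Among the members of the hypoxia group, the hydroxylases and targets fell and the factors rose. Of their relatives outside the members, *Egln2* rose from a mean of 369 to 435 (log2 fold change 0.23, adjusted p = 0.0200, limma). *Hif3a* fell from a mean of 338 to 105 (log2 fold change −1.68, adjusted p = 1.99e-10, limma). *Egln3*, on chromosome 12 from 55279968 to 55304847 on the − strand of mm9, had 1927, 2018 and 2099 normalized counts in controls and 283, 259 and 275 in mutants, 7.4-fold lower (log2 fold change −2.88, SE 0.061, adjusted p = 2.87e-16, limma). *Egln1* fell 3.03-fold, from 1184, 1321 and 1375 to 462, 413 and 406 (log2 fold change −1.60, SE 0.070, adjusted p = 3.17e-12, limma). In both hydroxylase genes the control and the mutant libraries lay far apart. *Vegfa*, the endothelial growth factor gene, went from 1208, 1105 and 1136 to 567, 508 and 502, and *Bnip3*, which acts in mitophagy, from 2082, 2310.1 and 2180.1 to 980.4, 1007 and 1044, with log2 fold changes of −1.13 (SE 0.065, adjusted p = 1.09e-10) and −1.12 (SE 0.056, adjusted p = 2.17e-11) in limma. *Hif1a* rose from a mean of 1542 ± 41.7 to 1988 ± 59.3 (SD, n = 3), a log2 fold change of 0.37 (SE 0.053, adjusted p = 1.29e-05) in limma. *Epas1* (HIF2A), on chromosome 17 from 87153247 to 87232750 on the + strand of mm9, rose 7.92-fold, from 251, 222 and 225 to 1929, 1715 and 1887 (log2 fold change 2.98, SE 0.069, adjusted p = 5.31e-16, limma), the largest rise among the members.

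*Epas1* and the sum of the endoderm markers had the same order of group means. The single markers *Gata4*, *Gata6* and *Sox17* had this order as well. The means of *Foxa2*, *Afp* and *Ttr* were higher in male mutants than in male controls. *Epas1* was lowest in female controls, followed by male mutants, male controls and female mutants, without overlap between neighbouring groups. The endoderm sum was 143, 153 and 195 in female control libraries A, B and C, 179, 889.9 and 877 in male mutants, 1092, 1201 and 1018 in male controls and 2169, 2129 and 2067 in female mutants. Male mutant A was the lowest of its genotype in both measures, and its endoderm sum lay within the range of the female controls. The part of endoderm-like cells in the level of *Epas1* was not tested.

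**Figure D2:**
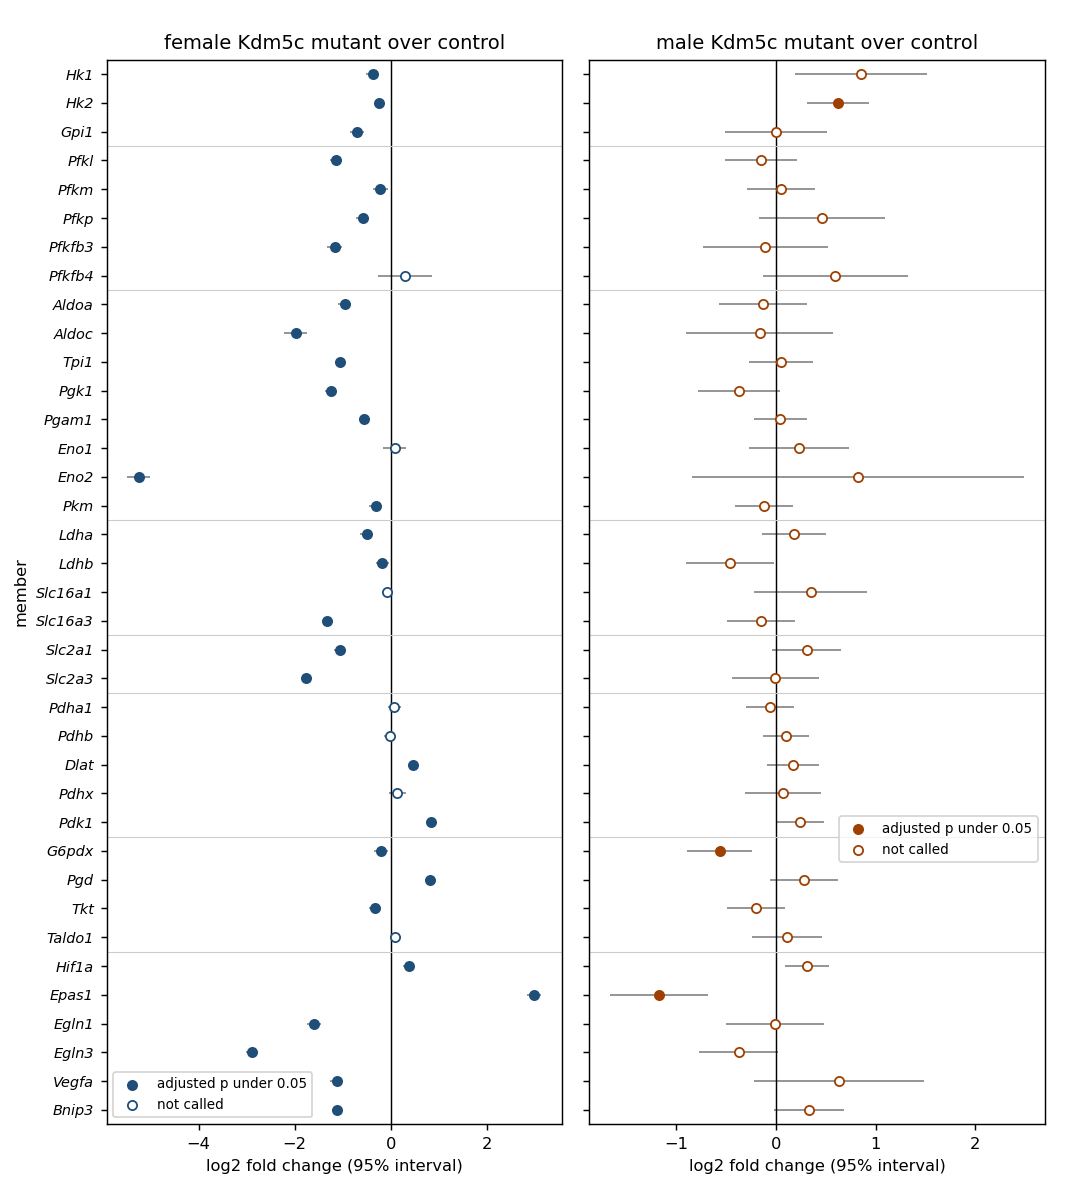
Log2 fold changes of the members, mutant over control, with 95% intervals from limma on 3 libraries a genotype, female on the left and male on the right, on axes of different range. Filled points passed an adjusted p under 0.05. In females 25 filled points lie below 0 and 5 above, and in males only *Hk2*, *Epas1* and *G6pdx* are filled, beside wide intervals such as that of *Eno2*.

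In males, few members passed the test. *Hk2* rose and *Epas1* and *G6pdx* fell, and 34 of 37 members were not called (limma over 21965 genes). In simulated data the male test found 60% of 2-fold changes and the female test 93%, so a member not called in males may still have changed. Across all genes 4.22% were called higher and 3.64% lower, so counts of 1 and 2 are about what the background gives. The median log2 fold change of the members was 0.054, against −0.17 over all genes tested and −0.00147 over the genes whose mean reached 10. In 7 of 37 members male controls and mutants had separate ranges, against 26.6% of all genes. All 3 calls were lost in some fits with 1 library left out, as given beside them. Over these fits the log2 fold change ran from 0.52 to 0.73 for *Hk2*, −1.35 to −0.88 for *Epas1* and −0.64 to −0.46 for *G6pdx*.

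*Hk2* had 3315, 2721 and 3442 normalized counts in male control libraries A, B and C and 4206, 5230.1 and 5193 in mutants A, B and C. The genotypes did not overlap, and control B and mutant A were the lowest of each. Its log2 fold change of 0.63 (SE 0.14, adjusted p = 0.0269) in limma was opposite to that in females, and the adjusted p was 0.0965 without control A, 0.0905 without control C, 0.112 without mutant B and 0.120 without mutant C. *Epas1* was at 974, 890.1 and 929.8 in controls and 275, 531 and 481 in mutants, 2.17-fold lower, also opposite to females (log2 fold change −1.17, SE 0.22, adjusted p = 0.0139, limma). The adjusted p of *Epas1* was 0.0730 without control A and 0.0891 without control C. *G6pdx* fell from 469.6, 549 and 431 to 345, 286 and 351 (log2 fold change −0.56, SE 0.15, adjusted p = 0.0464, limma), in the same direction as in females. Its adjusted p lay above 0.05 without control A (0.158), control B (0.0557), control C (0.113), mutant B (0.187) or mutant C (0.120), and in limma voom (0.0576).

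In several other members of glycolysis male mutant A lay apart from mutants B and C. *Hk1* was at 582, 538 and 629 in controls and 584, 1458 and 1362 in mutants. Mutants B and C were at more than 2 times every control, whereas mutant A lay within the controls, and the log2 fold change of 0.85 did not pass the test (limma, adjusted p = 0.113). *Pfkp* was at 1359, 1135 and 1401 in controls and 1027, 2292 and 2393 in mutants, with mutant A below every control. *Eno2* was at 115, 51.7 and 138 in controls and 39.0, 359.8 and 326 in mutants, so mutant A was below every control. These 3 genes were higher than every control in mutants B and C.

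Male libraries of the genotypes overlapped for *Pgk1*, *Aldoa*, *Aldoc*, *Tpi1* and *Pgam1* of lower glycolysis. They also overlapped for *Pfkl* and *Pfkfb3* of the phosphofructokinase step. *Pgk1* was at 21787, 14109 and 22387 in controls and 14524, 14462 and 15363 in mutants, where control B lay below every mutant library. *Aldoa* was at 23164, 18249 and 24554 in controls and 15213, 24176 and 21596 in mutants. *Aldoc* was at 472, 241 and 529 in controls and 224, 449 and 426 in mutants. In both aldolase genes control B and mutant A were the lowest of their genotypes. *Tpi1* was at 7227, 6578 and 7501 in controls and 6062, 8112 and 8110.3 in mutants. *Pgam1* was at 11162, 11202 and 11448 in controls and 10834, 12326 and 11792 in mutants. The range of the mutants took in that of the controls in *Tpi1* and *Pgam1*. *Pfkl* was at 8591, 6330.2 and 7969 in controls and 5713, 7706 and 7198 in mutants. *Pfkfb3* was at 1039, 549 and 1045 in controls and 545, 977 and 899.9 in mutants. None of these passed the test, and the intervals of their log2 fold changes ran from −0.78 to 0.047 for *Pgk1* and from −0.22 to 0.31 for *Pgam1*.

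For uptake and lactate, *Slc2a3* was at 19942, 12803 and 20643 in male controls and 15410.1, 18267 and 18525 in mutants, and its log2 fold change had an interval of −0.44 to 0.43, which does not reach the female value of −1.76. *Slc2a1* was at 7975, 6187 and 7410.0 in controls and 7419, 10124 and 9245 in mutants, with mutants B and C above every control. *Slc16a3* was at 3870.3, 3419.9 and 3685 in controls and 2608, 3751 and 3692 in mutants. *Ldha* was at 12283, 11878 and 13159 in controls and 11924, 15443 and 15239 in mutants. Mutant A was the lowest mutant library in all 4 of these genes. *Pdha1* was at 1621, 1742 and 1607 in controls and 1721, 1566 and 1501 in mutants. *Pdk1* was at 1978, 1947 and 2157 in controls and 2286, 2417 and 2498 in mutants. *Pgd* was at 990.0, 1356 and 1052 in controls and 1175, 1486 and 1457 in mutants. The libraries of *Pdk1* did not overlap, and its adjusted p was 0.189 in limma.

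In the male hypoxia group, *Egln3* was at 1642, 1046 and 1614 in controls and 971, 1145 and 1149 in mutants. *Egln1* was at 1069.8, 680.3 and 1102 in controls and 699.6, 1074 and 1047 in mutants. *Vegfa* was at 965, 495 and 941 in controls and 618, 1674 and 1625 in mutants, with mutants B and C above every control and mutant A below controls A and C. *Bnip3* was at 2426, 1961 and 2414 in controls and 2266, 3174 and 3193 in mutants. *Hif1a* had means of 1177 ± 17.7 and 1465 ± 11.1 (SD, n = 3) without overlap and an adjusted p of 0.0863 in limma. Its log2 difference was 0.32, against 0.37 in females.

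The remaining members did not pass the male test, and their libraries overlapped except in *Pfkfb4* and *Pkm*. The mean normalized count in male controls and mutants was 7806 and 7782 for *Gpi1*, 589 and 618 for *Pfkm*, 25.8 and 39.4 for *Pfkfb4*, 31570.1 and 29002 for *Pkm* and 1761 and 2153 for *Eno1*. For lactate it was 1371 and 1031 for *Ldhb* and 2956 and 3975 for *Slc16a1*. For pyruvate dehydrogenase it was 1548 and 1659.8 for *Pdhb*, 941 and 1059.8 for *Dlat* and 222 and 231 for *Pdhx*. In the non-oxidative pentose phosphate arm it was 3996 and 3504 for *Tkt* and 1178 and 1256 for *Taldo1*. Their log2 fold changes ran from −0.46 (*Ldhb*) to 0.60 (*Pfkfb4*).

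Without male control B and male mutant A, 2 libraries a genotype remained, and 16 members were called higher, 6 lower and 15 not (limma, adjusted p under 0.05 over 21870 genes). This fit was added after the data had been seen. Of all genes, 17.7% were then higher and 25.4% lower, so more members were higher and fewer lower than in the background. The median log2 fold change over all genes was itself −0.225. No fit without these libraries was made with a minimum mean, so the part of genes with few reads in this background was not tested. The largest rises were those of *Eno2*, 1.44 (SE 0.12, adjusted p = 0.000295), *Hk1*, 1.22 (SE 0.070, adjusted p = 7.23e-05), *Vegfa*, 0.79 (SE 0.055, adjusted p = 0.000131), and *Pfkp*, 0.76 (SE 0.053, adjusted p = 0.000135). The monocarboxylate transporter *Slc16a1* changed by 0.73 and *Slc2a1* by 0.33. The members that fell were *Epas1* (−0.91), *Ldhb* (−0.67), *Pgk1* (−0.57), *G6pdx* (−0.51), *Egln3* (−0.50) and *Slc2a3* (−0.14). Among members called in females and in this fit, 10 had opposite directions (*Bnip3*, *Eno2*, *Epas1*, *Hk1*, *Hk2*, *Ldha*, *Pfkp*, *Slc2a1*, *Tpi1* and *Vegfa*) and 9 the same direction (*Dlat*, *Egln3*, *G6pdx*, *Hif1a*, *Ldhb*, *Pdk1*, *Pgd*, *Pgk1* and *Slc2a3*). The naive sum in the libraries kept was 7178 and 7365 in mutants and 1458 and 1446 in controls, and the fibroblast sum was 4663 and 4256 in mutants and 614 and 553 in controls. The formative sum was 7815 and 7779 in mutants and 10760 and 11039 in controls, with 6 of 7 genes lower and 1 higher in this fit (median −1.21). The part of these markers in the results was not tested.

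**Figure D3:**
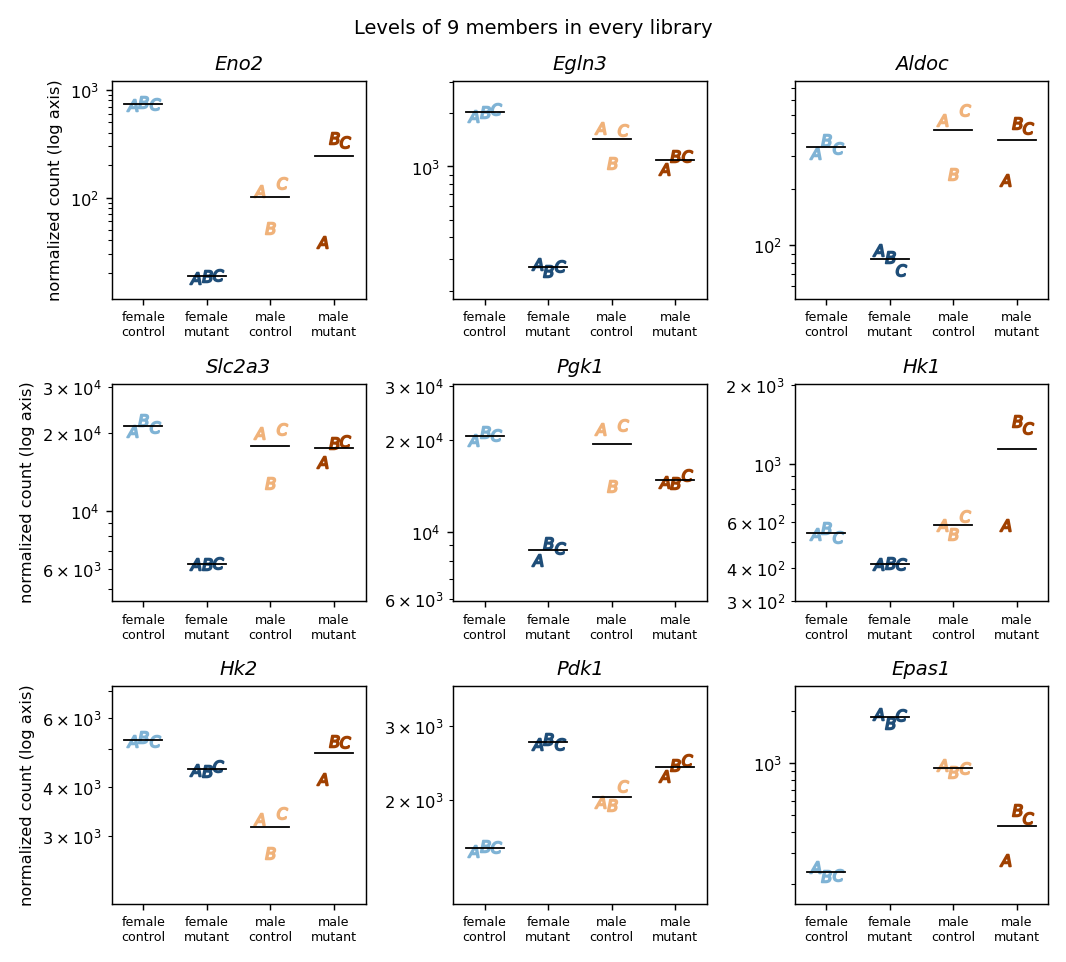
Normalized counts of 9 members on log axes, with the letter of each library as its point and a line at the mean of the 3 libraries. The female genotypes lie apart in all 9 panels, for example 728 to 770 against 18.0 to 19.2 for *Eno2*, whereas male control B and male mutant A often lie below the other libraries of their genotypes.

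The effect of the mutation differed between the sexes for 22 members (limma interaction of sex and genotype over 22107 genes and 12 libraries), against 21.4% of all genes. All 22 were also called in females, with which the interaction shares its 6 female libraries. In 19 of them the male log2 difference was above the female one and in 3 (*Epas1*, *Pdk1* and *Pgd*) below it. The largest were *Eno2*, where the male minus the female difference was 6.07 (SE 0.87, adjusted p = 0.000282), *Epas1*, −4.16 (SE 0.26, adjusted p = 2.65e-07), and *Egln3*, 2.51 (SE 0.20, adjusted p = 2.83e-06). For the glucose transporters it was 1.75 (SE 0.22, adjusted p = 8.42e-05) for *Slc2a3* and 1.37 (SE 0.17, adjusted p = 9.63e-05) for *Slc2a1*. All 22 were called again without male control B and male mutant A, a fit added after the data had been seen. It had 30 calls among the members and called 45.8% of all genes. The call of *Hk1* was lost without male mutant C (adjusted p = 0.0526), that of *Pgd* without any of the 6 female libraries (up to 0.0750), that of *Pfkfb3* without 9 of the 12 libraries (up to 0.0835) and that of *Pfkp* without 11 of them (up to 0.0880). The median over the members was 0.68, against −0.20 over all genes tested and −0.016 over genes with a mean of at least 10.

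The control EpiLCs of the sexes also differed. Of the members, 8 were higher and 2 lower in female than in male controls (limma over 22107 genes). Of all genes 21.6% were called in either direction, and 31.4% of those with a mean of at least 10. The count among the members does not stand out from these shares. *Eno2* had the largest difference, with 728, 769.7 and 732 in females and 115, 51.7 and 138 in males, a log2 difference of 2.97 (SE 0.62, adjusted p = 0.00416). Female mutants (18.0 to 19.2) were below male controls in *Eno2*, and male mutants (39.0 to 359.8) below female controls. *Hk2* was higher in female controls by 0.74 (SE 0.11, adjusted p = 0.000294), *Egln3* by 0.51 (SE 0.14, adjusted p = 0.0210), *Slc16a3* by 0.52 (SE 0.12, adjusted p = 0.00707), *Tpi1* by 0.45 (SE 0.11, adjusted p = 0.00979) and *Hif1a* by 0.38 (SE 0.067, adjusted p = 0.00134), and the subunit genes *Pdhx* and *Pdhb* by 0.40 and 0.29 (all from limma). The call of *Egln3* was lost without female control B or C (adjusted p up to 0.0750), that of *Pdhb* without female control A or C or male control A (up to 0.0573), and that of *Pdhx* without 8 of the 12 libraries (up to 0.161). *Epas1* was lower in female controls, with a log2 difference of −2.0 (SE 0.18, adjusted p = 6.75e-06), and so was *Pdk1*, with −0.41 (SE 0.072, adjusted p = 0.00161). In *Epas1* and *Pdk1* female mutants were higher than both controls, whereas in *Slc2a3*, *Pgk1*, *Egln1*, *Egln3*, *Pfkl* and *Slc16a3* they were lower than every library of the other 3 groups. The sexes differ in the number of X chromosomes and in the lines used, which cannot be told apart.

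The makeup of gene families shifted with these changes. Shares were taken of levels per kb of exon within a family and are given as the range over 3 libraries, without a test. Only members were counted in a family, so genes outside the list, such as *Hkdc1*, *Egln2* and *Hif3a*, were left out. *Epas1* made up 13.6 to 15.3% of the summed level of *Hif1a* and *Epas1* in female controls, 49.2 to 51.9% in female mutants, 46.1 to 47.8% in male controls and 17.3 to 28.8% in male mutants. *Egln3* made up 66.8 to 68.2% of the 2 hydroxylase genes in female controls and 44.7 to 47.2% in female mutants, with 65.9 to 67.0% and 58.5 to 64.7% in males. *Slc16a3* went from 49.3 to 53.2% of its family to 30.2 to 31.6% in females, so by this measure *Slc16a1* was the more abundant transporter gene in female mutants. *Slc2a3* went from 53.1 to 53.4% to 40 to 42.7% and *Pfkl* from 83.9 to 85.6% to 75.6 to 77.0%. Of *Hk1* and *Hk2*, *Hk2* stayed the main gene in every group. *Hk1* had 6.52 to 6.86% in female controls, 6.01 to 6.24% in female mutants, 10.9 to 12.1% in male controls and 8.86 to 16.3% in male mutants. *Hkdc1*, not counted here, rose in females from a mean of 26.2 to 527 normalized counts, beside 415 for *Hk1* in female mutants. *Aldoa* made up 98.8 to 98.9% of the aldolase pair in female controls and 99.4 to 99.5% in female mutants. *Ldha* made up 85.2 to 85.4% and 81.7 to 82.8% of the lactate dehydrogenase pair.

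**Figure D4:**
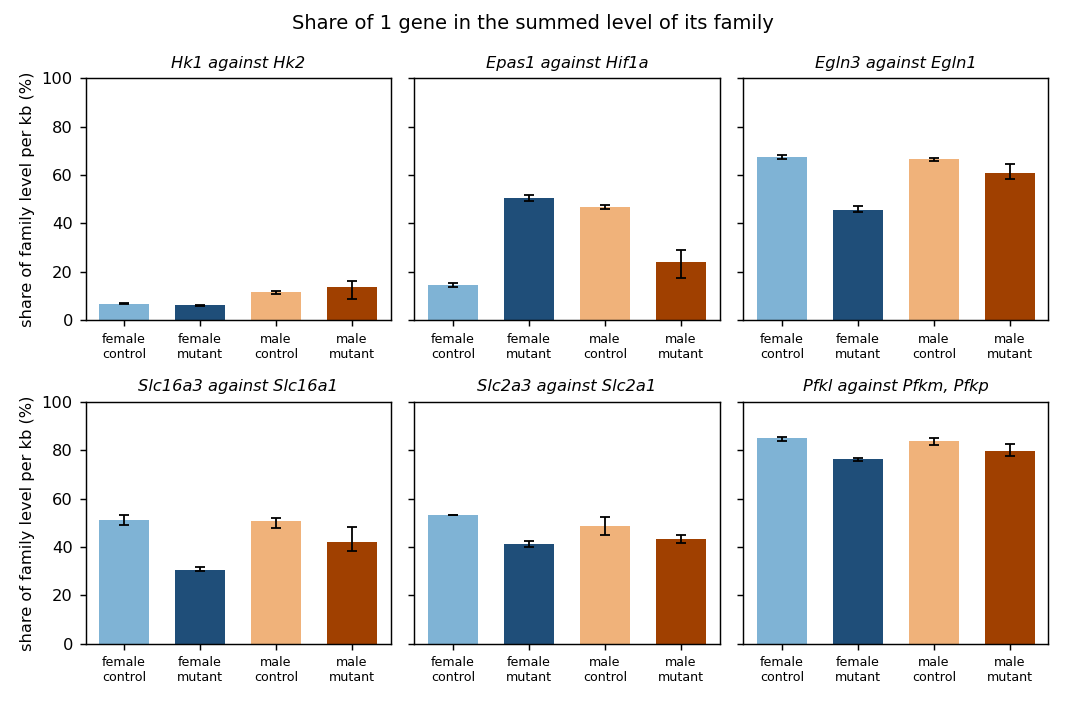
Bars give the mean share, in percent, of a gene in the summed level per kb of the members of its family, for 4 genotypes. Error bars give the lowest and highest of 3 libraries. The share of *Epas1* is near 50.7% in female mutants and 14.3% in female controls, and the shares of *Egln3*, *Slc16a3*, *Slc2a3* and *Pfkl* are lower in female mutants than in female controls.

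Genes of the same pathways outside the 37 were taken from a list of 78. Of 29 other genes of the hypoxia response, 22 fell and 6 rose in females and 1 was not called, and the median log2 fold change was −0.72, against 0.0040 over all genes. The largest falls were those of *Ndrg1*, −3.08 (1103 in controls and 130.1 in mutants), *Adm*, −2.35, and *Ddit4*, −2.29, a regulator of mTORC1. In males, 5 of these 29 fell and 1 rose, against 3.64% of all genes lower and 4.22% higher, so the single rise is what the background gives. *Adm*, which encodes adrenomedullin, changed by −1.36 in males and *Ddit4* by −0.65, with the same direction as in females. *Car12*, a carbonic anhydrase gene, fell in both sexes (−1.43 in females and −2.18 in males), and *Lox*, which encodes lysyl oxidase, fell in females (−0.50) and rose in males (1.26). Of 24 other glycolysis genes tested in females, 6 fell and 3 rose, with changes of 4.30 for *Hkdc1*, a hexokinase domain gene (26.2 in controls and 527 in mutants), and −3.11 for *Slc16a7*, a monocarboxylate transporter gene (14.0 and 1.12). Of 11 other genes around pyruvate dehydrogenase, 2 fell and 1 rose in females. Of 10 other pentose phosphate genes, 3 rose and 2 fell in females. Against 24.7% of all genes lower and 25.5% higher, the glycolysis, pyruvate dehydrogenase and pentose phosphate counts do not stand out from the background. Across the lists, 75 genes were tested in males, of which 6 fell and 1 rose (again against 3.64 and 4.22% of all genes), and all of these except the transketolase-like gene *Tktl1* (−2.01) belong to the hypoxia response.

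The members lay on 16 chromosomes, with 5 each on chromosomes 6 and 7, and 3 were X-linked. Over 537 X-linked genes with a mean of at least 10, the median log2 fold change was −0.19 in females and −0.099 in males, against 0.0079 and 0.0074 over autosomal genes. Of the X-linked members, *Pdha1* was near 0 in both sexes (0.067 in females and −0.055 in males), *G6pdx* changed by −0.20 and −0.56, and *Pgk1* by −1.25 and −0.36. In females the log2 fold changes of the other genes of lower glycolysis, all autosomal, ran from −5.25 (*Eno2*) to 0.076 (*Eno1*). The part of X linkage in the change of *Pgk1* was not tested.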

How the data were processed

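Total RNA of EpiLCs was depleted of ribosomal RNA, and 12 strand-specific libraries (3 per genotype) were read from 1 end over 50 bp. The authors mapped reads to mm9 with TopHat2 (2.1.0) and Bowtie2 (2.2.6.0), and reads with at most 1 mismatch and a unique position were retained. The read counter of these libraries and the gene annotation are not given in the sources used here. Cuffdiff is also listed in the submitters' notes. The signal columns the authors deposited, in 2 tables of 22911 genes, are normalized read counts averaged over the 3 libraries of a genotype. Columns with a fold change, its log2, a p-value and an adjusted p hold the authors' own DESeq comparison and were not used.

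A deposited mean fixes the 3 whole read numbers behind it once the size factors are known. The reads were solved from the digits deposited, for 99.98 to 100% of genes per genotype. In male mutants, 46 genes (6 of them members) had a second solution at a looser limit, which was tried as an alternative. The solver and the tests were checked on simulated data. The solver was right for 100% of simulated means in female controls and 99.995% in male mutants. For male mutant means over 10000 it was right in 97.9%. The female test found 93% of 2-fold changes and the male test 60%, with 6.31 and 6.79% of the calls false. Reads carry no sample names, and the mean columns carry no replicate numbers. The design had assumed values of single libraries, which were recovered here. Recovered depth was 6251464 to 12583027 reads per library. Depth covers counting error only, since PCR copies were not marked.

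Limma (3.58.1, R 4.3.3) with an intensity trend was fitted to log2(normalized count + 1) within each sex over all genes with a read. The interaction and the comparison of the control sexes used 12 libraries and median-of-ratios factors over all of them. Values of p were adjusted over all genes by the Benjamini-Hochberg method, with 0.05 as threshold. An exact permutation test of 3 libraries against 3 cannot give a p under 0.10. Alternatives were a pseudocount of 0.1, a minimum mean of 10, scaling by total reads or upper quartile, voom, each library left out, and, added after the data were seen, the fits without male control B and male mutant A. Every member is accounted for, with values of every library for members called in both sexes or in the interaction, the 5 largest changes called in each sex and X-linked members. Of other pathway genes, counts and the 3 largest changes called in each sex are named. *Ddit4*, *Lox*, *Eno1b*, *Egln2* and *Hif3a* were named after their values were seen. The members, lists and tests were chosen with earlier results of these data known. Exonic lengths and positions are from GENCODE vM1 on NCBIM37 (mm9), matched by symbol (*Pkm* as *Pkm2*). A length covers all annotated exons of a gene together and not those of a single transcript. Unique reads were counted every 5 bp of exon. *Gapdh* is not among the genes analysed here. Python 3.11.15, numpy 2.4.6, pandas 2.3.3, numba 0.67.0 and matplotlib 3.10.9 were used.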

Additional observations from a re-analysis of the deposited data

Results flagged for a closer look

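The change in male mutants minus the change in female mutants passed the interaction test for 22 members (limma, adjusted p under 0.05), on the log2 scale and with 21.4% of all genes, and 34.2% of those with a mean of at least 10, called by the same test. For lower glycolysis it was 6.07 for *Eno2*, 1.82 for *Aldoc*, 1.11 for *Tpi1*, 0.88 for *Pgk1*, 0.83 for *Aldoa* and 0.59 for *Pgam1*. For the first steps it was 1.23 for *Hk1*, 0.87 for *Hk2*, 0.98 for *Pfkl*, 1.05 for *Pfkp* and 1.06 for *Pfkfb3*. The transporters and lactate dehydrogenase had 1.75 (*Slc2a3*), 1.37 (*Slc2a1*), 1.18 (*Slc16a3*) and 0.68 (*Ldha*). The hypoxia genes had 2.51 (*Egln3*), 1.58 (*Egln1*), 1.76 (*Vegfa*) and 1.44 (*Bnip3*). Below 0 were *Epas1* (−4.16), *Pdk1* (−0.60) and *Pgd* (−0.53). By the same test 5 of 7 formative epiblast genes, 5 of 6 endoderm genes and 1 of 8 naive genes were below 0 (medians −1.36, −3.98 and 0.21 over the lists) and 4 of 6 fibroblast genes above 0 (median 2.74), and the part of these markers in the members' differences was not tested.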

How the results depend on the processing

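No paired analysis was possible because the deposited columns are means without replicate numbers, so no replicate block could be fitted. In females, all 30 calls were made again with a pseudocount of 0.1, a minimum mean of 10, both other scalings and voom. Scaling by total reads moved the median of the members from −0.38 to −0.44. With each library left out, 27 to 30 of the 30 calls remained, and *Pfkm*, *Ldhb* and *G6pdx* were lost at least once. In males, voom left 1 member lower. Without male control B and male mutant A, 16 members were higher and 6 lower, with 43.1% of all genes called in either direction. Leaving out single male libraries gave 0 to 9 members higher and 0 to 3 lower, with 1.56 to 21.5% of all genes called in either direction. Without mutant A, 9 were higher, with 20.0% of all genes called in either direction. Without control A or control C 0 members passed the limma test, with 5 and 6 at an unadjusted p under 0.05. In these 2 fits 1.97 and 1.56% of all genes were called. For the difference between the sexes, the median of the members ranged from 0.55 (without male mutant B) to 0.80 (without male mutant A), and *Hk1*, *Pfkp*, *Pfkfb3* and *Pgd* were not called without some libraries (adjusted p of limma up to 0.0526, 0.0880, 0.0835 and 0.0750). Scaling by total reads also lost *Pgd* (0.0534). For female against male controls, scaling by total reads lost *Egln3* (adjusted p of limma 0.0511) and *Pdhx* (0.0512). With 1 library left out 5 to 14 members were higher and the median was 0.14 to 0.21. In those fits 13.2 to 37.8% of all genes were called in either direction. Without male control B and male mutant A, 18 were higher and 8 lower, with 48.7% of all genes called. In that fit *Pfkfb3* turned from 0.098 (not called) to −0.21 (adjusted p = 0.0367 from limma). Over all genes, male calls were 1726 with all libraries, 4380 without mutant A, 4710 without control B (30.5% of them higher, against 53.7%), 334 to 607 without any other library and 9427 (41.0% higher) without both. Calls of the difference between the sexes went from 4739 to 7381 without control B (36.7% higher, against 48.8%) and 10094 without both (38.8%), and those between the control sexes from 4769 to 8350 and 10746, and to 2914 without female control B. The cause of these changes was not tested, beyond the 2 libraries that stood apart. Of single genes not called in either fit, signs changed in 1 of 407 values in females and in 25 of 481 in males. Low depth limits *Pfkfb4* and, in female mutants, *Eno2*.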
